A study of Mus musculus with 4 samples.

Results

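Chromatin modifier and remodeller genes encode the enzymes and subunits that write, erase or read histone marks, and those that move nucleosomes. They were taken by symbol from 2 tables of the Ser2P ratio in B16F10 mouse melanoma cells. The rule took families named for methyltransferases, demethylases, acetyltransferases, deacetylases, DNA methylation, Polycomb, HP1, PHD-finger and bromodomain proteins and remodellers. It found 42 of the 3117 listed genes, of which 42 stood in the table of transcription start sites (TSS) and 41 in that of transcription end sites (TES). The rule read names and no measured value, though the genes, roles and lists were chosen with earlier results of these data known. No gene of DNA methylation was listed. Of the 42, 2 were set apart: Rbbp6, which acts in RNA 3′ end processing, and Phf7, known mostly as a histone ubiquitin ligase of male germ cells.

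The cells were B16F10, an established melanoma line, either lacking Carm1 (Carm1 KO) or parental and labelled WT (control). Carm1 is the arginine methyltransferase that marks histones and many transcription and RNA-binding proteins. How the knockout was made, and whether the cells were 1 clone, is not given in the sources used here. In native elongating transcript sequencing (mNET-seq), a nuclease cuts the chromatin, an antibody pulls down RNA polymerase II (Pol II), and the short RNA held by the enzyme is sequenced. Each genotype had 1 library made with an antibody to the Pol II tail phosphorylated at serine 2 (Ser2P) and 1 with the tail antibody 8WG16, giving 4 libraries. Each pooled 3 sets of cells after the nuclease step.

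The ratio deposited for each gene divides the Ser2P signal by a second signal whose identity is not given in the sources used here, so a change may lie in either signal. With 1 library per group no spread between replicates could be measured, no test was run, and each difference describes these libraries. Read depth was unknown. The Carm1 gene was not analysed here, and the knockout could therefore not be verified in these tables. Of 8 melanocyte markers 6 were listed at the TSS and 4 at the TES, among them Tyr, Tyrp1, Pmel, Mlana, Sox10 and Mc1r. Being listed shows only that a gene passed the authors' selection. A change was log2(Carm1 KO / control), called higher or lower past 1.5-fold (0.58 on the log2 scale).

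Chromatin regulators work in multi-subunit complexes. Acetyltransferases and the methyltransferases of histone H3 lysine 4 are generally found at active promoters. Polycomb complexes and the readers of methylated lysine 9 are linked to silencing, and remodellers use ATP to slide or exchange nucleosomes. Pol II gains serine 2 phosphorylation as it leaves the promoter and elongates, and the mark is usually strongest toward the gene end, where it helps to recruit RNA processing factors.

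At the TSS most of these genes had a higher Ser2P ratio in Carm1 KO cells than in control cells. Of the 42 genes, Kdm4d and Sirt3 were listed at 0 in both conditions and 40 could be compared. Among the 40, 30 were higher, 2 were lower and 8 lay between the thresholds. Over all 2859 compared genes 71.2% were higher and 5.6% were lower, and the 40 gave shares of 75% and 5%, close to this background. Their median change was 1.26 on the log2 scale, a 2.40-fold difference, against 1.17 over all genes. How the libraries were scaled to each other is not known here, and a factor on a whole library would move every gene alike, so a change near 0 could take either sign under another scaling. Relative to the median of all genes, the median of the 40 was 0.092, with 13 higher and 10 lower. The share of all genes past this centred threshold is not given here, so these 2 counts have no background. The median ratio of the 42 was 0.235 in Carm1 KO cells and 0.0992 in control cells, while all listed genes had 0.166 in Carm1 KO cells and 0.0809 in control cells. Single changes lay between -1.11 for Arid4a and 4.10 for Phf20, with quartiles of 0.57 and 1.84, against a range of -3.39 to 6.93 and quartiles of 0.46 and 1.89 over all genes.

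**Figure D1:**
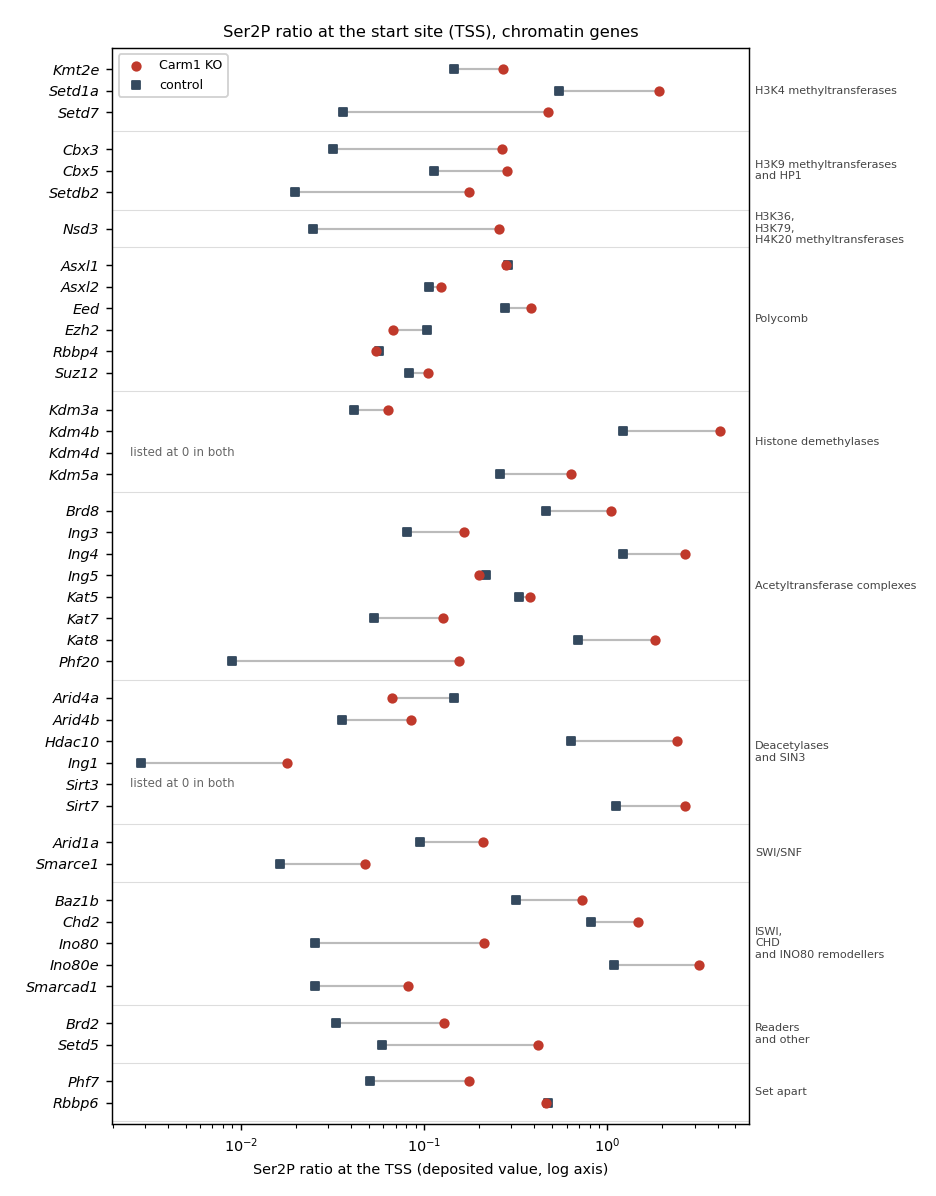
Ser2P ratio at the TSS of each chromatin gene, ordered by role, on a log axis, with 1 point for the Carm1 KO library and 1 for the control library. Kdm4d and Sirt3 are marked as listed at 0. The 6 Polycomb genes have points close together, while Phf20, Setd7, Nsd3 and Setdb2 have the widest gaps.

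The Polycomb genes stood apart from this pattern. Polycomb repressive complex 2 places methyl groups on lysine 27 of histone H3, with Ezh2 as its catalytic subunit and Eed, Suz12 and Rbbp4 as partners. Asxl1 and Asxl2 are partners of the Bap1 deubiquitinase that acts on histone H2A. None of these 6 genes was called higher at the TSS, 1 was lower and 5 lay between, against 71.2% higher and 5.6% lower over all genes. Their median change was 0.08, and all 6 lay below the median change of all genes. All 6 also lay below the median of the genes of like length, in the same length decile, by a median of -1.13. The group has only 6 genes, was singled out after its values were seen, and was not tested against the others. All but Ezh2 had at least 1 TSS value exactly equal to that of another listed gene, so these are coarse values.

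Ezh2 had a TSS ratio of 0.0679 in Carm1 KO cells and 0.103 in control cells, a log2 change of -0.61. Eed had 0.383 in Carm1 KO cells and 0.277 in control cells, a change of 0.47 that was the highest of the group. Suz12 had 0.105 in Carm1 KO cells and 0.0827 in control cells, a change of 0.35. The call of Ezh2 as lower lay just past the threshold and was lost with a pseudocount of 0.01, which gave -0.54, and at a 2-fold threshold. Rbbp4, a histone-binding protein that also serves in deacetylase and histone-assembly complexes, had 0.0545 in Carm1 KO cells and 0.0565 in control cells. Asxl1 had 0.280 in Carm1 KO cells and 0.287 in control cells, and Asxl2 had 0.123 in Carm1 KO cells and 0.107 in control cells. These last genes had nearly equal ratios in both libraries.

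All 3 listed genes of lysine 4 methylation were higher at the TSS, as were 71.2% of all genes. Their median change was 1.82, and 2 of the 3 exceeded the median change of all genes. Setd7, a SET-domain enzyme that places a single methyl group on lysine 4 and also acts on other proteins, had 0.476 in Carm1 KO cells and 0.0362 in control cells, a change of 3.72. Setd1a, the catalytic subunit of a COMPASS complex, had 1.92 in Carm1 KO cells and 0.545 in control cells, a change of 1.82. Kmt2e, a family member that binds methylated lysine 4 through its PHD finger, had 0.269 in Carm1 KO cells and 0.145 in control cells, a change of 0.89. The control ratio of Setd7 was the lowest of the 3, and in Carm1 KO cells it exceeded that of Kmt2e.

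The lysine 9 group was also higher at the TSS in all 3 genes, with a median of 3.06, against 71.2% of all genes higher. Setdb2, a lysine 9 methyltransferase of the SET-domain family, had 0.176 in Carm1 KO cells and 0.0198 in control cells, a change of 3.15. It spans chr14:59402009-59440884 on the minus strand. Cbx3 and Cbx5 encode HP1 proteins, which bind methylated lysine 9. Cbx3 had 0.266 in Carm1 KO cells and 0.0318 in control cells, a change of 3.06, and Cbx5 had 0.284 in Carm1 KO cells and 0.113 in control cells, a change of 1.33. Setdb2 had the lowest ratio of the 3 in both conditions. Nsd3, which methylates lysine 36, was the only listed gene of its group, with 0.256 in Carm1 KO cells and 0.0249 in control cells, a change of 3.36.

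Demethylases remove these marks, and all 3 that could be compared were higher at the TSS, as were 71.2% of all genes. Their median was 1.28. Kdm4b, which acts on methylated lysines 9 and 36, had 4.11 in Carm1 KO cells and 1.21 in control cells, and its Carm1 KO ratio was the highest of the 42. Kdm5a, a lysine 4 demethylase, had 0.633 in Carm1 KO cells and 0.260 in control cells. Kdm3a, a lysine 9 demethylase, had 0.0636 in Carm1 KO cells and 0.0417 in control cells, a change of 0.61 that lay just past the threshold. Its call as higher was lost with a pseudocount of 0.01, which gave 0.51. Kdm4d, related to Kdm4b, was the gene listed at 0 in both conditions and did not stand in the TES table.

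Among acetyltransferase genes 6 of 8 were higher at the TSS and 2 lay between, with a median of 1.15, against 71.2% of all genes higher. Phf20, a methyl-lysine reader in a complex of the acetyltransferase Kat8, had 0.155 in Carm1 KO cells and 0.0090 in control cells, a change of 4.10. In GENCODE M21 on GRCm38 it spans chr2:156196466-156309952 on the plus strand. Kat8 itself had 1.81 in Carm1 KO cells and 0.688 in control cells, a change of 1.39. Kat7, which acetylates histones H3 and H4, had 0.127 in Carm1 KO cells and 0.0532 in control cells, a change of 1.26. The enzymes differed: Kat5, the catalytic subunit of the TIP60 complex, had 0.379 in Carm1 KO cells and 0.328 in control cells, a change of only 0.21. Its complex partners Brd8 and Ing3 were higher, by 1.17 and 1.02 on the log2 scale. Ing4 and Ing5 encode related PHD-finger subunits of Kat7 complexes. Ing4 had 2.66 in Carm1 KO cells and 1.22 in control cells, a change of 1.13, while Ing5 had 0.199 in Carm1 KO cells and 0.219 in control cells, a change of -0.14. These related subunits thus had different changes in the same libraries. The Ing5 value in Carm1 KO cells was shared by 10 listed genes, so it is a coarse value.

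Of the deacetylase and SIN3 genes, 4 of 5 compared were higher at the TSS and 1 was lower, with a median of 1.26. Over all genes 71.2% were higher and 5.6% lower. Arid4a and Arid4b encode related subunits of the SIN3 deacetylase complex, and they lay on opposite sides of 0. Arid4a had 0.0671 in Carm1 KO cells and 0.145 in control cells, a change of -1.11, and it spans chr12:71015990-71098592 on the plus strand. Arid4b had 0.0852 in Carm1 KO cells and 0.0357 in control cells, a change of 1.26. The Arid4a value in Carm1 KO cells was shared by 12 listed genes and that of Arid4b by 6, so these are coarse values. Ing1, a reader of methylated lysine 4 in SIN3 complexes, had 0.0178 in Carm1 KO cells and 0.0029 in control cells, a change of 2.64. Hdac10, known mainly as a deacetylase of polyamines, had 2.39 in Carm1 KO cells and 0.633 in control cells. Sirt7, a deacetylase of the nucleolus and chromatin, had 2.66 in Carm1 KO cells and 1.11 in control cells. Sirt3, a deacetylase of mitochondria, was listed at 0 in both conditions. Through Hdac10 and Sirt3 the name rule takes in enzymes known mainly for work outside chromatin.

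All 7 remodeller genes were higher at the TSS, as were 71.2% of all genes. Arid1a, a DNA-binding subunit of SWI/SNF complexes, had 0.211 in Carm1 KO cells and 0.0952 in control cells, and its complex partner Smarce1 had 0.0479 in Carm1 KO cells and 0.0163 in control cells. The 5 genes of other remodellers had a median of 1.54. Ino80, the ATPase of the complex of that name, had 0.214 in Carm1 KO cells and 0.0253 in control cells, a change of 3.08. Its subunit Ino80e had 3.17 in Carm1 KO cells and 1.09 in control cells, a change of 1.54. Chd2, a chromodomain remodeller of transcribed chromatin, had 1.47 in Carm1 KO cells and 0.814 in control cells, a change of 0.85 that was the lowest of the 5. Baz1b and Smarcad1 lay between these changes, at 1.21 and 1.68. Of the readers and other genes, Brd2, a BET protein that binds acetylated histones, had a change of 1.95. Its values were coarse, shared by 12 listed genes in Carm1 KO cells and by 6 in control cells. Setd5, which was placed in no other role, had a change of 2.83. Phf7 was at 1.79 and Rbbp6 at -0.02.

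The 6 changes above 3 all lay in genes with low control ratios, and since the control value is the denominator of the change this is given as a description. All 6 had at least 1 TSS value shared with other genes, such as the Carm1 KO value of Nsd3, shared by 9 genes, and that of Phf20, shared by 6. Among genes with no shared value the highest change was 2.64, that of Ing1. Its control ratio was only 0.0029, and with a pseudocount of 0.01 its change was 1.11. The 8 genes with a control TSS ratio of at least 0.5 were Kdm4b, Ing4, Sirt7, Ino80e, Chd2, Kat8, Hdac10 and Setd1a. All 8 were higher, with changes between 0.85 and 1.92, as were 326 of the 348 genes of the whole table at such a control ratio. The 32 genes below 0.5 ranged from -1.11 to 4.10, and 22 of them were higher, against 1710 of 2511 in the whole table. The counts lay close to this background. A low ratio is also coarser: 24 of the 40 compared genes had at least 1 TSS value exactly equal to that of another listed gene, 21 in Carm1 KO cells and 11 in control cells. Over all compared genes this held for 1848 of 2859. The 16 with no shared value were higher in 14 cases and lower in 1. The calls of all genes without shared values are not given here, so these 2 counts have no background.

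Promoter sequences are shown for 4 genes with unshared TSS values, to set the letters of genes higher in Carm1 KO cells beside those of Ezh2. They are the 2 highest and the 2 lowest TSS changes among genes whose RefSeq start lay within 500 bp of the GENCODE start and whose promoter held an exon-free run of 120 bases, so higher changes such as those of Ing1 and Setd1a are not represented. Each run is the 120 bases before the RefSeq start, and nearest to it, that touched no annotated exon, on GRCm38.p6, read 5′ to 3′ on the gene's strand, with CG dinucleotides in capitals. Kat8 lies at chr7:127912396-127912515 on the plus strand, with a change of 1.39. Kat7 lies at chr11:95310247-95310366 on the minus strand, with a change of 1.26. Kdm3a lies at chr6:71632991-71633110 on the minus strand, with a change of 0.61. Ezh2 lies at chr6:47595059-47595178 on the minus strand, with a change of -0.61. Its RefSeq start lies 311 bp from the GENCODE start, so this run falls inside the gene as GENCODE annotates it.
Kat8: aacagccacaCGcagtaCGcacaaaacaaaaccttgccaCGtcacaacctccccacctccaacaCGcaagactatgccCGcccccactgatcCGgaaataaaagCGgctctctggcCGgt
Kat7: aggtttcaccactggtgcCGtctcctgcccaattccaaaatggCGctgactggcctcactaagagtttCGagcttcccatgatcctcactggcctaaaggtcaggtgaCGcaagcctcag
Kdm3a: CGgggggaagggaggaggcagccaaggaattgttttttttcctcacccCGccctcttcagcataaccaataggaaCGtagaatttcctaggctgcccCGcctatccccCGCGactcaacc
Ezh2: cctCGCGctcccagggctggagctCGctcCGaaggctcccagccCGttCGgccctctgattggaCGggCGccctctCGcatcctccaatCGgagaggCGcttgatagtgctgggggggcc
These windows held 8, 4, 6 and 11 CG dinucleotides in the order printed. RefSeq gave a promoter of 300 bases, 250 before the start to 50 after it, for 33 of the 42 genes. Their median GC content was 61.3%, against 61.7% for the listed genes as a whole and 55% for all promoters in the table. The letters TATAAA on either strand were in 0 of the 33, against 6.23% of listed genes and 13.2% of all promoters. CCAAT on either strand was in 54.5% of the 33, against 41.8% of listed genes and 38.2% of all promoters, and was searched after the sequences had been seen. These are matches of letters in a window and say nothing of binding.

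At the TES the genes had higher ratios too, but with a smaller median. Among 41 genes 24 were higher, 2 were lower and 15 lay between, shares of 58.5% and 4.88%. Over all 3016 compared genes 66.7% were higher and 7.13% were lower, so the share of these genes called higher was below the background. Their median change was 0.70, a 1.63-fold difference, against 0.85 over all genes. Relative to the median of all genes it turned to -0.15, with 4 higher and 12 lower. The share of all genes past this centred threshold is not given here, so these 2 counts have no background. The median ratio of the 41 was 4.50 in Carm1 KO cells and 3.35 in control cells, while all listed genes had 2.99 in Carm1 KO cells and 1.71 in control cells.

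**Figure D2:**
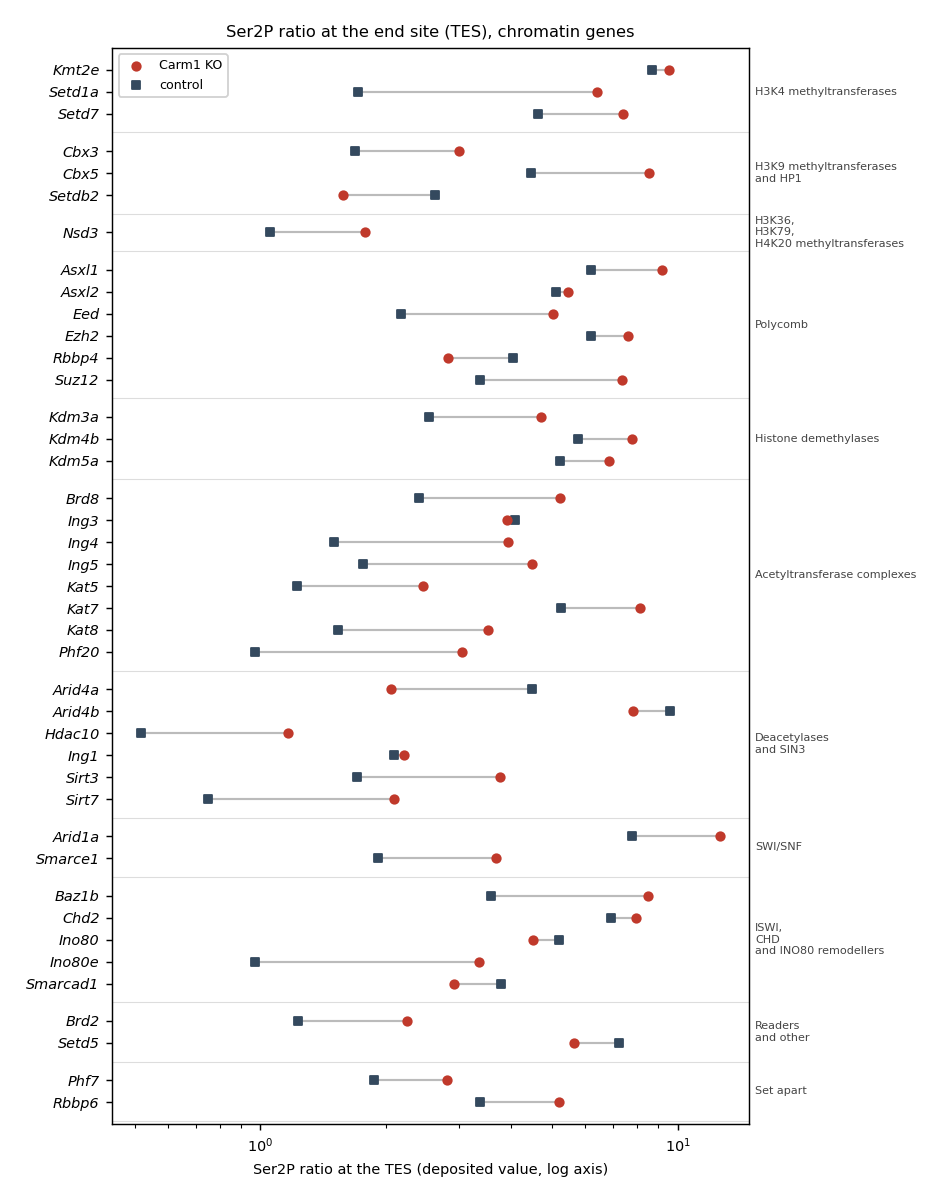
Ser2P ratio at the TES of each chromatin gene, ordered by role, on a log axis, with 1 point for the Carm1 KO library and 1 for the control library. Setd1a and Ino80e have the widest gaps with the Carm1 KO point higher, and Arid4a the widest gap with it lower.

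The change at the TES went with gene length, and these genes were long. Their median annotated length was 38876 bp, against 18245 bp for the genes of the TES table. The 18 genes under 30 kb had a median change of 1.13, with 14 higher and 0 lower. The 11 genes of 30 to 70 kb had 0.63, with 7 higher and 1 lower. The 12 of at least 70 kb had 0.15, with 3 higher, 1 lower and 5 below 0. All genes gave medians of 0.96, 0.51 and -0.05 from the shortest class to the longest. Of all genes in the table, 1600 of 1984 were higher and 30 lower under 30 kb, 312 of 648 were higher and 75 lower at 30 to 70 kb, and 80 of 352 were higher and 105 lower at 70 kb or more. Set against their own length decile, 25 of the 41 exceeded its median and 16 did not. Set against all genes, 18 exceeded the median change and 23 did not. Across genes, Spearman's rho between length and TES change was -0.50 over 40 of these genes and -0.33 over all genes. At the TSS it was -0.03. All points share the same libraries, and genes are not independent replicates.

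**Figure D3:**
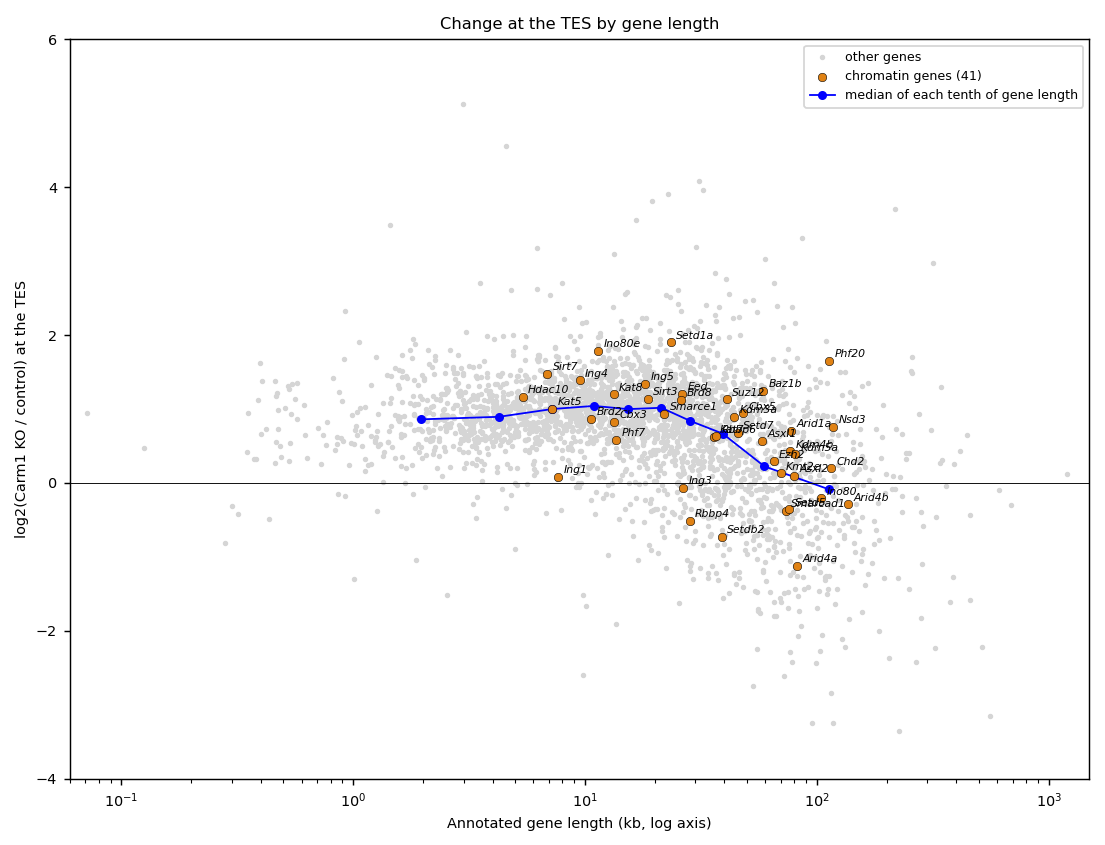
Change of the Ser2P ratio at the TES, log2(Carm1 KO / control), against annotated gene length in kb on a log axis, with other genes as small points and the median of each length decile as a line. The long genes Arid4a, Arid4b and Ino80 lie below 0, while Phf20 lies at 1.65.

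By role, 7 of 8 acetyltransferase genes were higher at the TES, with a median of 1.16, against 66.7% of all genes higher. Their median length was 22062 bp, and shorter genes had higher TES changes. Relative to genes of like length their median was 0.24, with 6 above and 2 below. Phf20 had 3.05 in Carm1 KO cells and 0.971 in control cells, a change of 1.65 in a gene of 113487 bp. Ing4 and Ing5, which differed at the TSS, were alike at the TES, with changes of 1.39 and 1.34. Kat5 had 2.46 in Carm1 KO cells and 1.23 in control cells, a change of 1.00. Ing3 was the exception, with 3.90 in Carm1 KO cells and 4.08 in control cells.

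Setd1a had the highest TES change of the 41, with 6.40 in Carm1 KO cells and 1.71 in control cells, a change of 1.90. Its control value was shared by 6 listed genes, and Hsd3b7 started within 1 kb of its end. At the TES 17 of the 41 genes had at least 1 shared value, against 1121 of all 3016 compared genes. The related Kmt2e had 9.53 in Carm1 KO cells and 8.70 in control cells, a change of 0.13. Thus 2 of the 3 lysine 4 genes were higher at the TES, as were 66.7% of all genes. Setdb2 was lower there, with 1.58 in Carm1 KO cells and 2.62 in control cells, a change of -0.73. It was the only gene of the 40 measured at both ends that was higher at the TSS and lower at the TES, a pattern seen in 4.58% of all genes. Cbx3 and Cbx5 were higher at the TES, by 0.82 and 0.94. Nsd3, at 0.76, was higher as well.

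The Polycomb genes were mixed at the TES, with 2 of 6 higher, 4 between and a median of 0.43, against 66.7% of all genes higher. Eed had 5.02 in Carm1 KO cells and 2.18 in control cells, a change of 1.21. Suz12 had 7.35 in Carm1 KO cells and 3.35 in control cells, a change of 1.13. Ezh2 had 7.61 in Carm1 KO cells and 6.21 in control cells, a change of 0.29, and Rbbp4 had 2.82 in Carm1 KO cells and 4.02 in control cells, a change of -0.51. The core partners Eed and Suz12 were thus higher at the end of the gene and inside the thresholds at its start. Relative to genes of like length, 5 of the 6 lay above the median.

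Among demethylases Kdm3a was higher at the TES, with 4.71 in Carm1 KO cells and 2.54 in control cells, while Kdm4b and Kdm5a lay between, at 0.43 and 0.39. Of the deacetylase and SIN3 genes 3 of 6 were higher and 1 was lower, against 66.7% and 7.13% of all genes. Sirt7 had 2.09 in Carm1 KO cells and 0.751 in control cells, a change of 1.48, and Sirt3 had 3.76 in Carm1 KO cells and 1.71 in control cells, a change of 1.14. Arid4a had 2.06 in Carm1 KO cells and 4.49 in control cells, a change of -1.13, the lowest of the 41. It was lower at both ends, as were 0.613% of all genes. Its relative Arid4b had 7.84 in Carm1 KO cells and 9.60 in control cells, a change of -0.29. Both genes were among those of at least 70 kb.

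The SWI/SNF genes Arid1a and Smarce1 were both higher at the TES, by 0.70 and 0.94. Arid1a had 12.6 in Carm1 KO cells and 7.77 in control cells, the highest Carm1 KO ratio of the 41. Of the 5 other remodeller genes only Ino80e and Baz1b were higher, at 1.78 and 1.25, against 66.7% of all genes higher. Ino80 had 4.50 in Carm1 KO cells and 5.20 in control cells, a change of -0.21, and Smarcad1 had 2.91 in Carm1 KO cells and 3.77 in control cells, a change of -0.37. Ino80 and Ino80e, of the same complex, therefore differed at the TES, and their lengths differ as the plot by gene length shows. Brd2 was higher by 0.87, and Setd5 had a change of -0.36. Phf7 stood just inside the threshold with 2.81 in Carm1 KO cells and 1.87 in control cells, and Rbbp6 just past it with 5.20 in Carm1 KO cells and 3.36 in control cells.

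**Figure D4:**
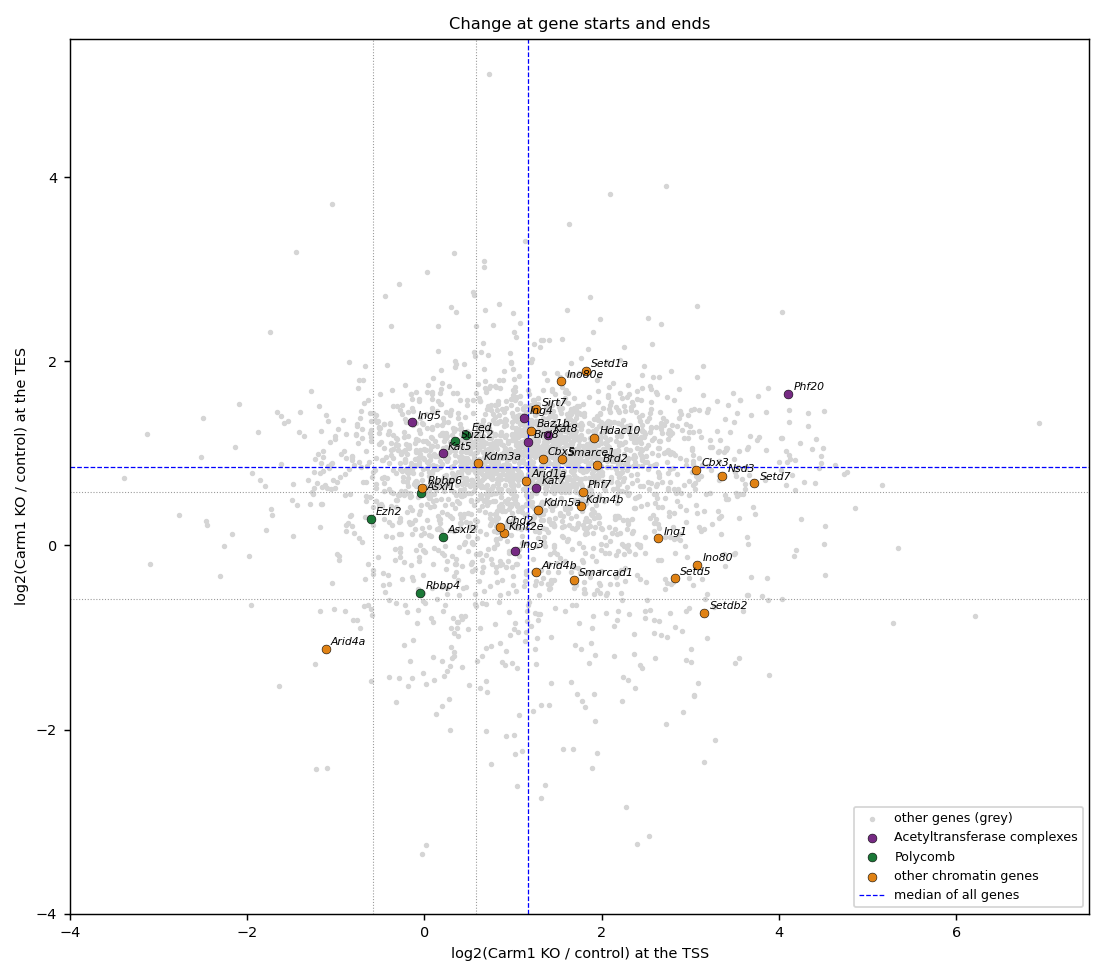
Change at the TES against change at the TSS, both log2(Carm1 KO / control), for the 40 chromatin genes measured at both ends and for all other genes as small points, with dotted lines at 1.5-fold and dashed lines at the median of all genes; Polycomb genes are green and acetyltransferase genes purple. Setdb2 lies at the right and below 0, and Arid4a at the lower left.

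The 2 ends gave little of the same order. Of the 40 genes 18 were higher at both ends, 45% against 49.2% of all 2775 genes measured at both. Another 11 were higher at the TSS and between at the TES, 27.5% against 17.6% of all genes. A further 5 were between at the TSS and higher at the TES, 12.5% against 14.5% of all genes. Those 5 were Eed, Suz12, Kat5, Ing5 and Rbbp6. The changes at the ends had a Spearman's rho of 0.07 over the 40 genes and 0.02 over all genes, given as a description of points that share libraries.

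The ratio of the TES value to the TSS value sets both ends of a gene against each other, and a factor that scales a whole condition cancels in it. The unnamed divisor may differ between the ends. It had a median of 16.8 in Carm1 KO cells and 40.0 in control cells over the 40 genes, while all 2775 genes had 15.7 in Carm1 KO cells and 19.5 in control cells. In the 7 genes none of whose values was shared with another gene, the order of the medians turned, with 10.8 in Carm1 KO cells and 8.51 in control cells. Taken gene by gene, the ratio was still lower in Carm1 KO cells for Kmt2e, Kdm5a, Hdac10, Ing1 and Chd2. It was higher for Ino80e and Rbbp6. Over the 40 genes the ratio was lower in Carm1 KO cells for 27 and higher for 13, a share of 67.5% lower against 63.4% over all genes. The median log2 change was -0.54, against -0.40 over all genes. Hdac10 and Sirt7 had a higher value at the TSS than at the TES in both conditions, and Ino80e did so in control cells only.

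**Figure D5:**
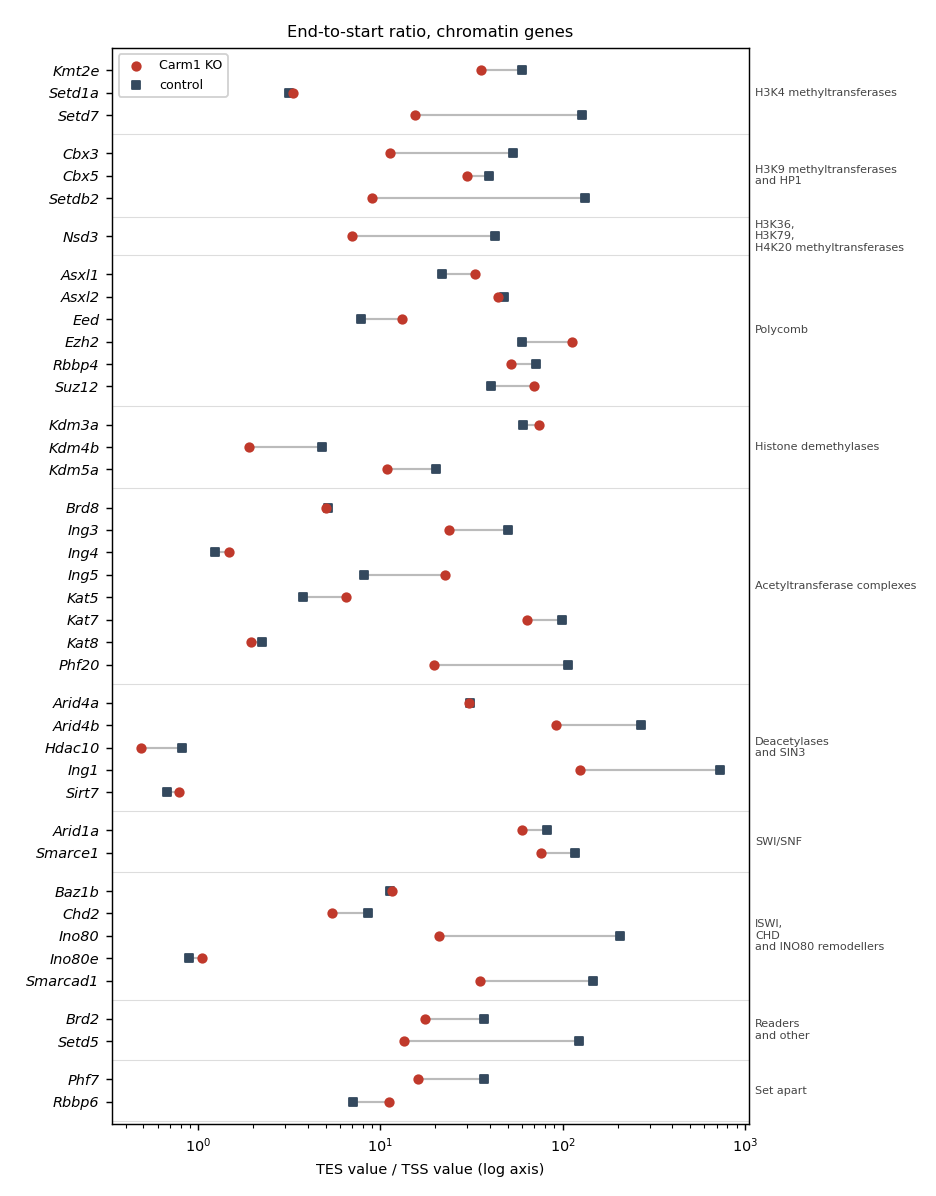
Ratio of the TES value to the TSS value of each chromatin gene, on a log axis, with 1 point for the Carm1 KO library and 1 for the control library. The widest gaps with the Carm1 KO point lower are those of Setdb2, Ino80 and Setd5, and the widest with it higher is that of Ing5.

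Setdb2 had an end-to-start ratio of 8.96 in Carm1 KO cells and 132 in control cells. Ino80 had 21.1 in Carm1 KO cells and 206 in control cells, and Setd5 had 13.5 in Carm1 KO cells and 122 in control cells. In each of these genes the TSS change was large and the TES change was below 0. Next came Setd7, with 15.5 in Carm1 KO cells and 128 in control cells, and Nsd3, with 6.97 in Carm1 KO cells and 42.3 in control cells. The TES changes of Setd7 and Nsd3 were above 0. The opposite order was found in Ing5, with 22.5 in Carm1 KO cells and 8.08 in control cells, and in Ezh2, with 112 in Carm1 KO cells and 60.2 in control cells. Kat5 had 6.49 in Carm1 KO cells and 3.74 in control cells. Suz12 had 69.9 in Carm1 KO cells and 40.5 in control cells, and Eed had 13.1 in Carm1 KO cells and 7.85 in control cells.

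Neighbouring genes could share signal, and whether the counting used strand is not given in the sources used here. For 20 of the 42 genes another annotated gene started within 1 kb of the start, such as Cab39l beside Setdb2, Hnrnpa2b1 beside Cbx3 and Hnrnpa1 beside Cbx5. Of the 18 of them that could be compared 13 were higher at the TSS, with a median of 1.26, against 17 of 22 and 1.33 in the others. At the TES 11 genes had another gene near or over the end and 9 of these were higher, with a median of 1.17. The other 30 had 15 higher and a median of 0.60. Most of the 11 were under 30 kb, a length class with a TES median of 1.13 and 14 of 18 higher, so this split overlaps with one by length. For these splits by neighbour no share of all genes is given here, so the counts have no background. The part of these neighbours in the changes was not tested.

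Partner subunits and histone chaperones outside the name rule were read beside these genes. Of 143 such genes 40 were listed. At the TSS 24 of 36 compared were higher, or 66.7% against 71.2% of all genes, and 2 were lower, with a median of 1.16. At the TES 24 of 40 were higher, or 60% against 66.7% of all genes, and 2 were lower, with a median of 0.97. At the TSS Paxip1, a partner of lysine 4 methyltransferases, had 0.0559 in Carm1 KO cells and 0.0118 in control cells, and Nap1l4, a nucleosome assembly protein, had 4.39 in Carm1 KO cells and 0.952 in control cells. Vps72, a subunit that handles histone H2A.Z, was lower there, with 0.105 in Carm1 KO cells and 0.217 in control cells. Mrfap1 was lower too, with 0.0164 in Carm1 KO cells and 0.0720 in control cells. At the TES Gps2, of the NCoR corepressor, had 1.83 in Carm1 KO cells and 0.626 in control cells, and Tfpt, an INO80 subunit, had 4.22 in Carm1 KO cells and 1.53 in control cells. Ss18, a SWI/SNF subunit, was lower there, with 1.08 in Carm1 KO cells and 2.50 in control cells, a change of -1.21. Epc2, of the TIP60 complex, had 3.22 in Carm1 KO cells and 5.40 in control cells.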

How the data were processed

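The authors deposited 1 table for the TSS and 1 for the TES of the mNET-seq libraries, each with a Ser2 value per gene for control and for Carm1 KO cells. Per the file headers these are fractions, but they exceed 1, so the deposited values were read as a linear ratio. Not given in the sources used here are its divisor, windows, scaling, strand setting and gene selection. Per the submitters' processing notes, cutadapt 1.18 and TopHat2 2.1.1 were used and GRCm38 was the build. Columns were assigned to groups by their names. Symbols were matched to GENCODE M21 for length and neighbours, which found all 42 genes, and to RefSeq promoters.

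Values were processed with Python 3.11.15, numpy 2.4.6 and pandas 2.3.3. For genes above 0 in both conditions, the Carm1 KO value was divided by the control value and put on the log2 scale, without adding a pseudocount. With 1 library per group there was no test and no p-value. The named genes were, per role, the highest and lowest at each end, those at 0 or in opposite directions, and the 5 highest and lowest in end-to-start change; other genes of the set are named to complete a role. Of the partner genes the 2 highest and 2 lowest at each end are named. The rule leaves out 1 gene that is not reported here. The genes, roles and lists were chosen with earlier results of these data known. The steps were tested on simulated data. Alternatives covered zeros, low and shared values, membership, centring, gene length and the fold threshold.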

Additional observations from a re-analysis of the deposited data

How the results depend on the processing

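No paired analysis was possible because each group had 1 library, and no replicate could be left out. The TES median, 0.70, became -0.15 once the median of all genes was subtracted. So centred, the TSS median was 0.092 with 13 genes higher and 10 lower, and the TES had 4 higher and 12 lower. Centred on each length decile, the TSS median was 0.074 with 11 higher and 11 lower, and the TES median was 0.18 with 7 higher and 6 lower. For these centred counts no share of all genes is given here. With a pseudocount of 0.01 the TSS median was 1.13 with 1 lower. Without values shared with another gene, the TSS had 14 higher and 1 lower of 16 and the TES 13 higher and 1 lower of 24. At a 2-fold threshold the TSS had 1 lower, and the TES 14 higher and 1 lower. For the counts without shared values and at 2-fold no share of all genes is given here either. In an alternative chosen after seeing the data, each condition was divided by a constant of its own, 1.34 in Carm1 KO and 1.03 in control. Of the values above 0, 99.7% and 99.0% equalled that constant times a ratio of whole numbers up to 2000, within a relative 1e-09. That share does not single out a constant. Among simple multiples of the most frequent TES value, the one giving the smallest mean log2 product of the whole numbers was taken. In Carm1 KO this mean was 10.4 for 1.34 and 10.7 for 2.68. In control it was 11.3 for 1.03 and 11.5 for 2.06. Both choices were narrow, and other multiples would shift both medians. With 1.34 and 1.03 the TSS median was 0.88 and the TES median 0.32, the TES with 14 higher and 7 lower. What the constants stand for is not given in the sources used here. The log2 median end-to-start ratio was 4.07 in Carm1 KO and 5.32 in control. Without low values it was 3.95 in Carm1 KO and 5.21 in control, without shared values, in 7 genes, 3.43 in Carm1 KO and 3.09 in control, and without the genes set apart 4.22 in Carm1 KO. For the 7 genes without shared values the order of the medians was thus the other way round, though most of these genes had a lower ratio in Carm1 KO cells. The cause of these moves was not tested, beyond fewer genes being counted where genes were left out. Another 28 recomputed values kept their direction and stayed near the reported ones. Depth is unknown, so no counting error can be given.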
